A study of Saccharomyces cerevisiae with 18 samples.

Results

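The genes of the small ribosomal subunit processome were followed here as a module of 37 protein-coding genes, chosen by their systematic names out of the 6465 gene windows counted for Saccharomyces cerevisiae. The choice rested on what the proteins do, and it was made with earlier results of these data known. All 37 windows matched the RefSeq gene of that name in the R64 genome, and all 37 had at least 10 reads in at least 3 libraries for both new and total RNA, so no member was lost to the filter on low counts.

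The small subunit processome is the nucleolar particle that assembles on the nascent pre-ribosomal RNA, folds its 5′ part and brings about the early cleavages that release the precursor of the 40S ribosomal subunit. Its proteins bind in blocks: the UTP-A complex comes first, the UTP-B complex and the U3 small nucleolar ribonucleoprotein (U3 snoRNP) follow, and GTPases, RNA helicases and scaffold proteins later reshape and dismantle the particle. In yeast these genes belong to the ribosome biogenesis regulon, whose promoters often carry the PAC and RRPE motifs and whose transcription follows growth signals.

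Strain RDY73 carries the bromodomain proteins Bdf1 and Bdf2 with a degron tag that auxin triggers (alleles BDF1-3XV5-mAID-URA3 and BDF2-3XV5-mAID-kanMX). It expresses the plant F-box protein OsTIR1 (pGPD1-OsTIR1::HIS3), which marks degron-tagged proteins for destruction once the auxin 3-indoleacetic acid (IAA) is present. Strain RDY234 has the same tagged genes and OsTIR1, plus an untagged copy of BDF1 under its own promoter (pBDF1-BDF1::TRP1), while its Bdf2 is tagged only. In each strain the IAA group received 1 mM IAA for 25 min and then 5 mM 4-thiouracil (4tU) for 4 min. The DMSO group received solvent in place of IAA and the same 4tU. The control group received neither IAA nor 4tU, and is listed with the same 25 min of IAA or DMSO treatment at 0 mM IAA as the DMSO group. Each of the 6 groups has 3 biological replicates (A, B and C) grown in YPD at 30 °C, and labelled Schizosaccharomyces pombe cells were mixed in with every sample as a spike-in.

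New RNA is given as labelled reads, which carry 2 or more T-to-C conversions, and total RNA as all reads of a gene. Values per library are scaled reads, in which a count is taken per S. pombe read of its own kind (labelled or all) and brought to the average S. pombe sum. Depth ran between 4177363 and 8541751 reads of S. cerevisiae and between 387855 and 792178 of S. pombe per library. The members together had 566 to 6211 labelled reads in a library given 4tU and 24 to 158 without it, and the labelled reads of single members over the 12 libraries with 4tU ran between 210 for FAL1 and 2903 for NOP56. Scaled total reads of BDF1 lay between 645.8 and 795.5 in the 9 RDY73 libraries and between 2067 and 2592 in the 9 RDY234 libraries. RDY234 carries the extra gene copy, but most other genes were lower in RDY73 on this scale too. The median log2 difference of all tested genes, RDY73 controls over RDY234 controls, was −0.68. The levels of the Bdf1 and Bdf2 proteins were not analysed here.

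The regulatory sequence that the members share was read from the 250 bases before each start codon in the R64 genome. The PAC motif (searched as GATGAG, on both strands) stood in 34 of 37 member windows, or 91.9%, beside 1022 of the 6001 nuclear protein-coding genes with a full window, or 17%. The RRPE motif (searched as AAAAATTTT, on both strands) stood in 22 member windows, or 59.5%, beside 6.73% of all genes, and 20 members held both, 54.1% beside 3.35%. The windows of 6 members are shown because they span the range of motif content and of response: the members with the most and the least lowered new RNA after IAA in RDY73 (FAL1 and IMP3, and UTP10 next to IMP3), 1 with PAC and RRPE side by side (ROK1), 1 with PAC repeated in tandem (ENP2) and the only member with neither (UTP22). They are printed 5′ to 3′ on the strand of the gene, with PAC and RRPE matches on either strand in capitals.
FAL1, chrIV:486554-486803, plus strand: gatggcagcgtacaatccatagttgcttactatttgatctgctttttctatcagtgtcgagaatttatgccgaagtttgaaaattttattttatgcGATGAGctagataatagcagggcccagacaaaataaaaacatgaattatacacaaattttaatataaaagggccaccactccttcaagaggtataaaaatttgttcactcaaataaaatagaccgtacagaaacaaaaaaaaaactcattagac
ROK1, chrVII:182140-182389, plus strand: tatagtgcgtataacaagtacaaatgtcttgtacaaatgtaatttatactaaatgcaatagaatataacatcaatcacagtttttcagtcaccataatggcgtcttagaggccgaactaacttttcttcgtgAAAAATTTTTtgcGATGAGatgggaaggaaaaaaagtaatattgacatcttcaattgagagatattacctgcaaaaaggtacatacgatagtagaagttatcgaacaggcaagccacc
ENP2, chrVII:781517-781766, plus strand: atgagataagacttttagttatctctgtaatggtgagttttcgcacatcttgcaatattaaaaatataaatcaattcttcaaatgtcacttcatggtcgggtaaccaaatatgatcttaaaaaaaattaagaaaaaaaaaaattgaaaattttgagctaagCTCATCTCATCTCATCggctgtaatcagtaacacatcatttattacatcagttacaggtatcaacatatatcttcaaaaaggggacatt
UTP10, chrX:217310-217559, minus strand: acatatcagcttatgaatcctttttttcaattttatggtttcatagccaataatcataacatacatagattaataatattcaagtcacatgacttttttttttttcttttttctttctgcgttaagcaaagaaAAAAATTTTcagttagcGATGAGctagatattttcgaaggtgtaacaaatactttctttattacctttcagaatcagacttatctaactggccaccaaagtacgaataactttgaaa
IMP3, chrVIII:393284-393533, plus strand: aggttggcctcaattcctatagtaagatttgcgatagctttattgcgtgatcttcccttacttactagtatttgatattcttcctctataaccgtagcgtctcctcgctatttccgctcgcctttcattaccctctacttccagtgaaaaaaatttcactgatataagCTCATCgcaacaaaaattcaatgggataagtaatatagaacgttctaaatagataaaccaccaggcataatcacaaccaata
UTP22, chrVII:662108-662357, plus strand: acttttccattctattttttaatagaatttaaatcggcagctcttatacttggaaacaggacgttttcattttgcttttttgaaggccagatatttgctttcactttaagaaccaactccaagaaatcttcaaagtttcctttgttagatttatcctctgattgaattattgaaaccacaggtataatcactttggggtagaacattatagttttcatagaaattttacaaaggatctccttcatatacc
In these windows FAL1 has a PAC match that begins 154 bases before the start codon and IMP3 has 1 that begins 82 bases before it. ENP2 has 3 PAC matches that share their end letters, beginning 89, 84 and 79 bases before the start codon, and ROK1 has RRPE, read on either strand in overlapping letters, just upstream of a PAC match at 105 bases. The PAC match nearest to the start codon lay between 67 and 204 bases away over the 34 members, with a median of 121 bases, and the nearest RRPE match between 34 and 225 bases away over 22 members.

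**Figure D1:**
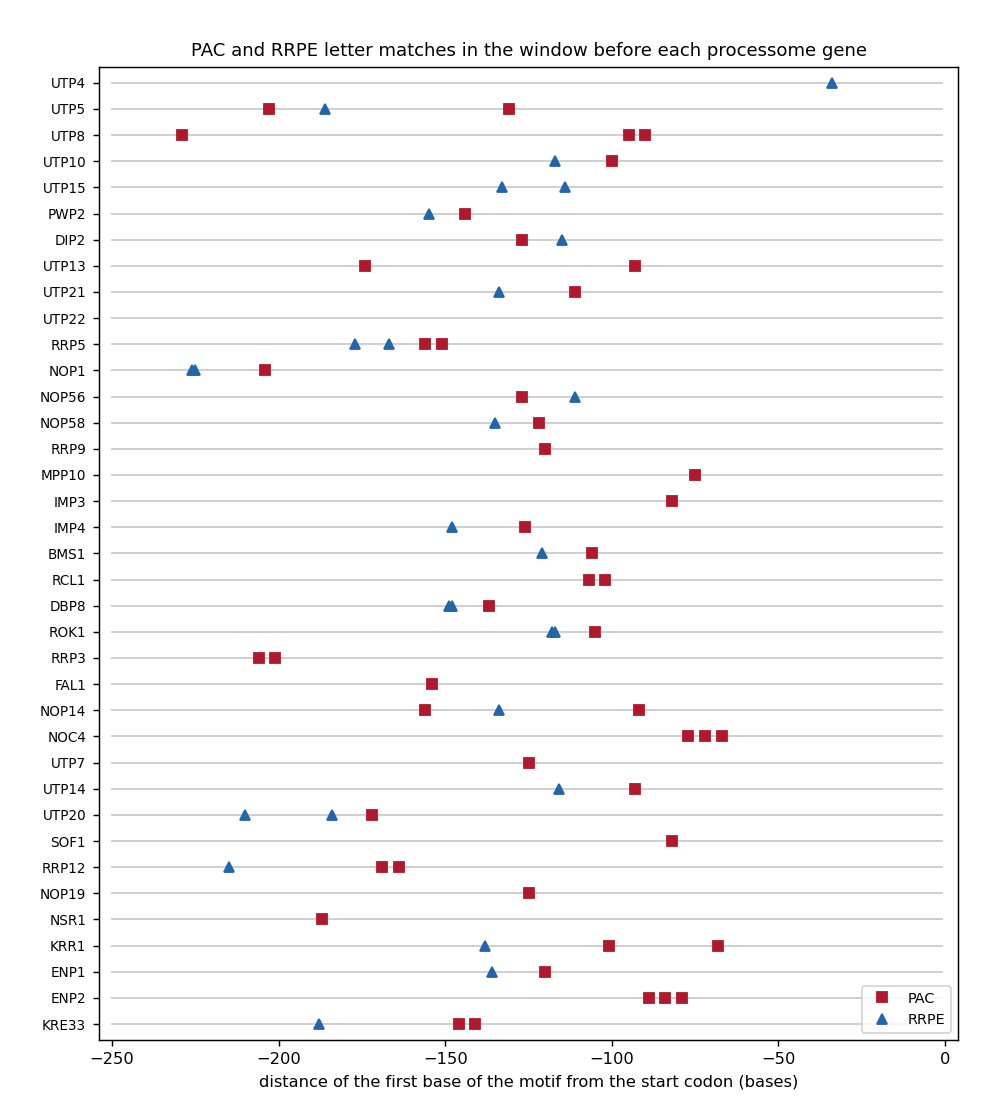
Distance in bases of each PAC (squares) and RRPE (triangles) letter match from the start codon, 1 line for each of the 37 processome genes, ordered by complex. Squares gather around the median nearest distance of 121 bases, 34 of 37 genes have at least 1 square, and UTP22 has neither mark.

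The new RNA of every processome gene was lower with IAA than with DMSO in RDY73. Summed over the 37 members, scaled labelled reads were 578.2, 651.3 and 610.5 in the RDY73 IAA libraries and 1999, 2610 and 2164 in the RDY73 DMSO libraries, so the groups stood well apart, against 26.07 to 32.7 in RDY73 cells that had no 4tU. In edgeR's quasi-likelihood test, adjusted by Benjamini-Hochberg over all 5195 tested genes, 37 of 37 members were lower at an adjusted p under 0.05 and none was higher, where the background was 83.9% of all tested genes lower and 0.385% higher. The median log2 change of the members was −2.18 and that of all tested genes −1.97, so the count lies near a background in which most genes were lower. In bulk cultures, fewer cells and less RNA per cell cannot be told apart, and a change per S. pombe read covers both.

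The UTP-A genes, whose proteins are the first to bind the 5′ external spacer of the pre-rRNA, fell to different extents. UTP8 (YGR128C, chrVII:747950-750091), which codes for a UTP-A subunit, had 19.4, 20.1 and 17.4 scaled labelled reads in RDY73 IAA cells and 120.0, 158 and 132 in RDY73 DMSO cells, a log2 change of −2.84 ± 0.24 (SE, adjusted p = 1.89e-30). UTP10 (YJL109C), which codes for the largest UTP-A subunit, had 22.5, 24.3 and 12.2 in IAA cells and 47.4, 32.0 and 36.5 in DMSO cells, a log2 change of −0.99 ± 0.29 (adjusted p = 0.0011). The libraries of the groups did not overlap for either gene, and the lowest DMSO value of UTP10 was much closer to its highest IAA value than was the case for UTP8. UTP4 (YDR324C), UTP5 (YDR398W) and UTP15 (YMR093W) changed by −2.63 ± 0.37, −2.36 ± 0.41 and −1.45 ± 0.25 on the log2 scale.

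The 4 UTP-B genes of the module kept within a narrow range. They code for WD-repeat proteins of the complex that holds the 5′ spacer and meets the U3 snoRNP. PWP2 (YCR057C, chrIII:220457-223228) had 7.15, 12.5 and 7.83 scaled labelled reads in RDY73 IAA cells and 26.3, 59.4 and 34.4 in RDY73 DMSO cells, a log2 change of −2.04 ± 0.34 (adjusted p = 1.59e-08). The other UTP-B genes of the module, DIP2 (YLR129W), UTP21 (YLR409C) and UTP13 (YLR222C), changed by −1.92 ± 0.32, −1.92 ± 0.33 and −1.59 ± 0.34. UTP22 (YGR090W) of the UTP-C complex and RRP5 (YMR229C), an RNA-binding protein needed for both ribosomal subunits, changed by −1.89 ± 0.31 and −2.18 ± 0.25. RRP5 had 11.2, 20.9 and 22.6 in IAA cells and 60.0, 104 and 92.7 in DMSO cells, without overlap.

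The core proteins of the U3 snoRNP, which guides the early cleavages by base pairing with the pre-rRNA, had values nearer 0 than the median of the module. NOP56 (YLR197W, chrXII:546097-547611), a core box C/D protein, had 70.5, 87.8 and 77.4 scaled labelled reads in RDY73 IAA cells and 143, 198 and 188 in RDY73 DMSO cells, a log2 change of −1.15 ± 0.18 (adjusted p = 1.03e-09). NOP1 (YDL014W), the fibrillarin methyltransferase, had 38.8, 51.8 and 38.3 in IAA cells and 108, 134 and 106 in DMSO cells, a log2 change of −1.42 ± 0.21. NOP58 (YOR310C), the partner of NOP56 in box C/D particles, changed by −1.60 ± 0.20. RRP9 (YPR137W), which binds U3 and no other box C/D RNA, changed by −2.14 ± 0.24, the lowest value of these 4.

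In the Mpp10 complex, which helps U3 to pair with the pre-rRNA, the 3 genes covered most of the range of the module. MPP10 (YJR002W, chrX:438865-440646), its scaffold, had 3.07, 6.69 and 1.74 scaled labelled reads in RDY73 IAA cells and 29.5, 54.8 and 24.0 in RDY73 DMSO cells, a log2 change of −3.12 ± 0.43 (adjusted p = 4.76e-12). IMP3 (YHR148W, chrVIII:393534-394085) had 8.17, 8.36 and 10.4 in IAA cells and 20.0, 18.3 and 15.6 in DMSO cells, a log2 change of −0.98 ± 0.42 (adjusted p = 0.0249), the least negative of the 37. IMP4 (YNL075W) changed by −2.20 ± 0.37. For IMP3 the groups did not overlap, but its call was lost without RDY73 DMSO replicate A (log2 change −0.89), without RDY73 IAA replicate B (−0.93) and with TMM scaling over S. pombe genes (−0.80).

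BMS1 (YPL217C), the GTPase of the particle, had 3.07, 10.0 and 4.35 scaled labelled reads in RDY73 IAA cells and 29.5, 35.0 and 41.7 in RDY73 DMSO cells, a log2 change of −2.54 ± 0.37. RCL1 (YOL010W), which codes for its binding partner, changed by −2.80 ± 0.40. The 4 DEAD-box RNA helicases held the lowest value of the module. FAL1 (YDR021W, chrIV:486804-488003) had 3.07, 0 and 0 in IAA cells, all from 3 reads in replicate A, and 15.8, 22.8 and 17.7 in DMSO cells, from 47 reads. The ratio of IAA to DMSO for FAL1 was 0.0493 with a 95% Clopper-Pearson interval of 0.00981 to 0.153, which covers counting error only. Its fitted log2 change of −4.17 ± 0.68 depends on the prior count of the fit. ROK1 (YGL171W), DBP8 (YHR169W) and RRP3 (YHR065C) changed by −3.03 ± 0.46, −2.35 ± 0.46 and −2.28 ± 0.30.

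NOP14 (YDL148C, chrIV:188154-190586), which acts together with its partner Noc4, had 28.6, 41.8 and 27.0 scaled labelled reads in RDY73 IAA cells and 95.8, 142 and 128 in RDY73 DMSO cells, a log2 change of −1.88 ± 0.21. NOC4 (YPR144C) changed by −2.22 ± 0.39. Among the remaining factors NOP19 (YGR251W) had 6.13, 0 and 0 in IAA cells, from 6 reads in replicate A, and 17.9, 50.2 and 30.2 in DMSO cells, from 79 reads. The ratio for NOP19 was 0.0586, with a counting interval of 0.0209 to 0.133, and the fitted log2 change, which depends on the prior count, was −4.03 ± 0.51. At the other end stood NSR1 (YGR159C), the yeast relative of nucleolin, with 77.6, 76.9 and 100.0 in IAA cells and 173, 241 and 180 in DMSO cells, a log2 change of −1.21 ± 0.18.

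The other 9 factors fell between those values. UTP7 (YER082C) and SOF1 (YLL011W), both WD-repeat proteins, changed by −2.96 ± 0.36 and −2.12 ± 0.29. UTP14 (YML093W), which activates the helicase that releases U3, and UTP20 (YBL004W), a giant helical-repeat protein, changed by −1.91 ± 0.34 and −1.88 ± 0.31. RRP12 (YPL012W), a helical-repeat factor that accompanies pre-ribosomes to export, and ENP1 (YBR247C), which stays with the pre-40S particle into the cytoplasm, changed by −1.78 ± 0.29 and −2.21 ± 0.33. KRR1 (YCL059C), a KH-domain protein, ENP2 (YGR145W), and KRE33 (YNL132W), the RNA cytidine acetyltransferase, changed by −2.83 ± 0.45, −2.75 ± 0.40 and −2.24 ± 0.24.

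**Figure D2:**
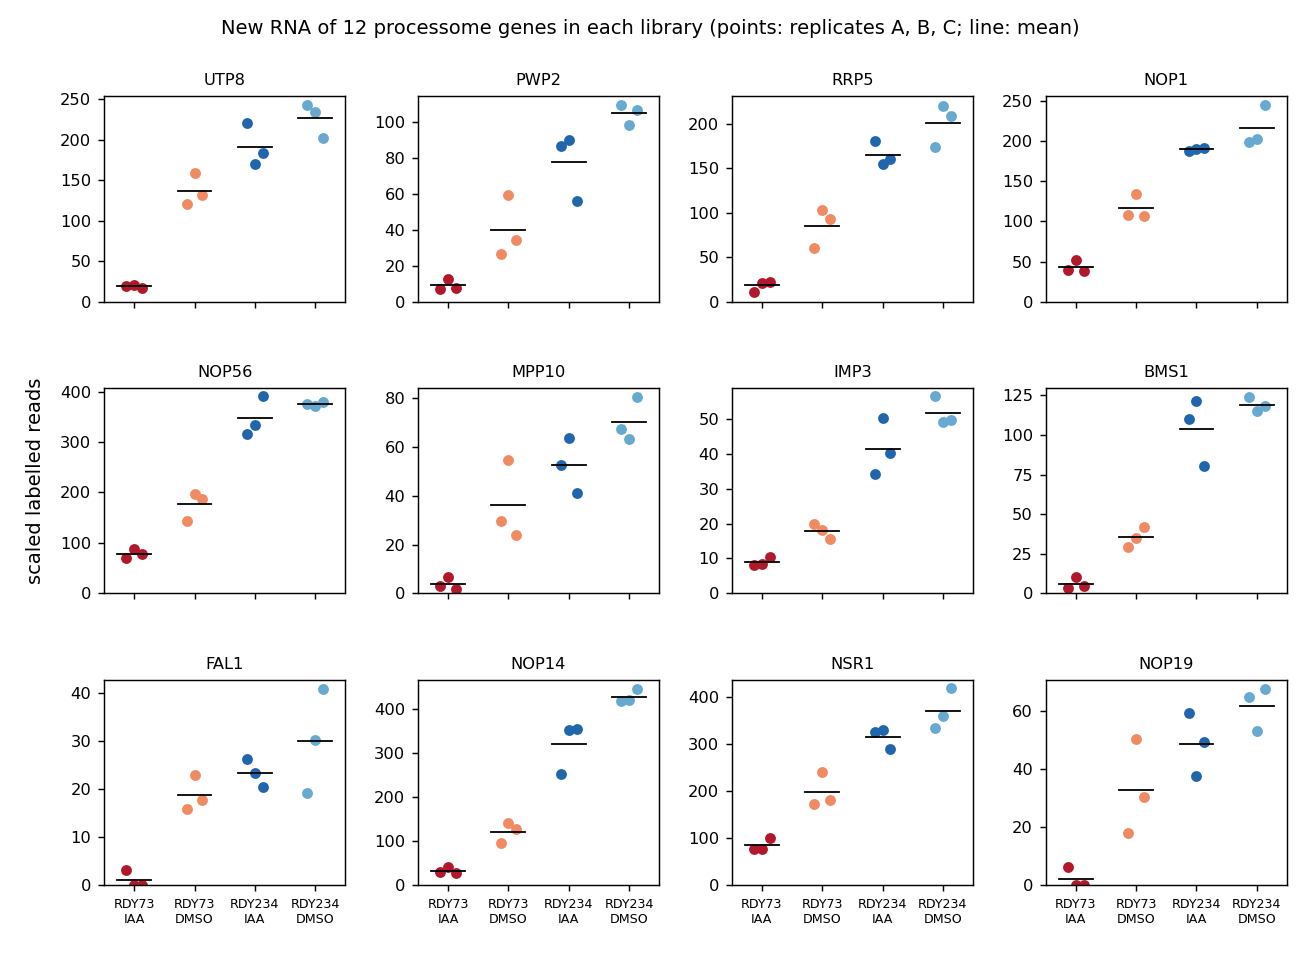
Scaled labelled reads (vertical axis, starting at 0) of 12 processome genes in RDY73 IAA, RDY73 DMSO, RDY234 IAA and RDY234 DMSO cells; points are replicates A, B and C and lines their means. In RDY73 every IAA point lies below every DMSO point, and for FAL1 and NOP19 the IAA points of replicates B and C are at 0.

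Members that differ in promoter letters had overlapping ranges, and FAL1, NOP19 and MPP10, all with PAC only, lay below every member with both motifs. FAL1 and NOP19 had only 3 and 6 labelled reads in RDY73 IAA cells, and their fitted values depend on the prior count. MPP10, at −3.12, lay close to ROK1, which has both motifs, at −3.03. The 20 members with both PAC and RRPE had a median log2 change of new RNA of −1.98 in RDY73, with values between −3.03 and −0.99, and the 14 with PAC only had a median of −2.51, between −4.17 and −0.98. UTP4 and UTP15, with RRPE only, had −2.63 and −1.45, and UTP22, with neither, had −1.89. These groups were not tested against each other.

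Scaled among S. cerevisiae genes in place of the spike-in (relative scaling by TMM), where the median of all tested genes moved to −0.29, the members spread on both sides of 0 with a median of −0.48. In that scaling 9 members were lower and 2 higher, beside a background of 11.5% of tested genes lower and 16.3% higher. The 9 were UTP4, UTP8, MPP10, RCL1, ROK1, FAL1, UTP7, NOP19 and ENP2, with log2 changes between −2.60 for FAL1 and −0.95 for UTP4. The 2 were NOP56, at 0.56 (adjusted p = 0.0040), and NSR1, at 0.51 (adjusted p = 0.0080). UTP10, UTP13, UTP15, NOP1, NOP58 and IMP3 also turned to positive values there, between 0.11 and 0.71, none past the threshold. The members' share of all S. cerevisiae labelled reads was 0.4857% to 0.5477% in RDY73 IAA libraries and 0.8457% to 0.936% in RDY73 DMSO libraries. TMM scaling is not that share, so a value above 0 under it does not by itself mean a larger part of the labelled reads. The part of all labelled reads held by single members is not given here.

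With an untagged BDF1 copy present, no member passed the test after IAA. In RDY234 the summed scaled labelled reads were 4230, 4659 and 4446 with IAA and 5475, 5228 and 5605 with DMSO, and the IAA libraries lay below the DMSO libraries. None of the 37 members was lower or higher at the threshold, beside a background of 0.0192% lower and 0.0192% higher, while an unadjusted p under 0.05 was found for 7 members and for 245 of 5195 genes, and no member was called by DESeq2 either. The median log2 change of the members was −0.33, beside −0.12 for all tested genes, and 36 of 37 values were negative. In 16 members every IAA library lay below every DMSO library, which held for 12.3% of all tested genes.

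Among the members with the most negative values in RDY234, UTP20 had 71.1, 90.8 and 68.0 scaled labelled reads with IAA and 120.1, 128 and 126 with DMSO, without overlap, at a log2 change of −0.69 ± 0.22 (adjusted p = 0.64). NOP14 had 254, 354 and 355 with IAA and 419, 421 and 447 with DMSO, at −0.42 ± 0.16 (adjusted p = 0.84). UTP10 and RRP12 had −0.55 ± 0.21 and −0.54 ± 0.20. NOP58 and RRP3 had the highest values, −0.01 ± 0.16 and 0.05 ± 0.20, and their IAA and DMSO libraries overlapped. The rest of the members described by role were UTP8 at −0.25, PWP2 at −0.43, NOP1 at −0.18, MPP10 at −0.41, BMS1 at −0.19, DBP8 at −0.39 and NSR1 at −0.24.

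The effect of IAA differed between the strains for 35 of 37 members, all more negative in RDY73, beside a background of 74.2% of tested genes more negative and 0.231% less negative. The median difference of log2 changes, RDY73 minus RDY234, was −1.81 for the members and −1.82 for all tested genes. UTP8 differed by −2.59 ± 0.30 (adjusted p = 9.02e-16), MPP10 by −2.71 ± 0.52, BMS1 by −2.35 ± 0.44, NOP14 by −1.47 ± 0.26 and NSR1 by −0.97 ± 0.24. The 2 members short of the threshold were UTP10, at −0.44 ± 0.36 (adjusted p = 0.25), and IMP3, at −0.68 ± 0.51 (adjusted p = 0.22). With at least 1 conversion as the definition of a labelled read both passed, at −0.79 for UTP10 and −1.03 for IMP3, and with relative scaling both had the other sign, at 1.12 for UTP10, then past the threshold, and 0.88 for IMP3. In that scaling 11 of 37 differences were positive, with 2 members called less negative, UTP10 and NSR1, and 3 more negative, beside 11.6% and 6.68% of tested genes.

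**Figure D3:**
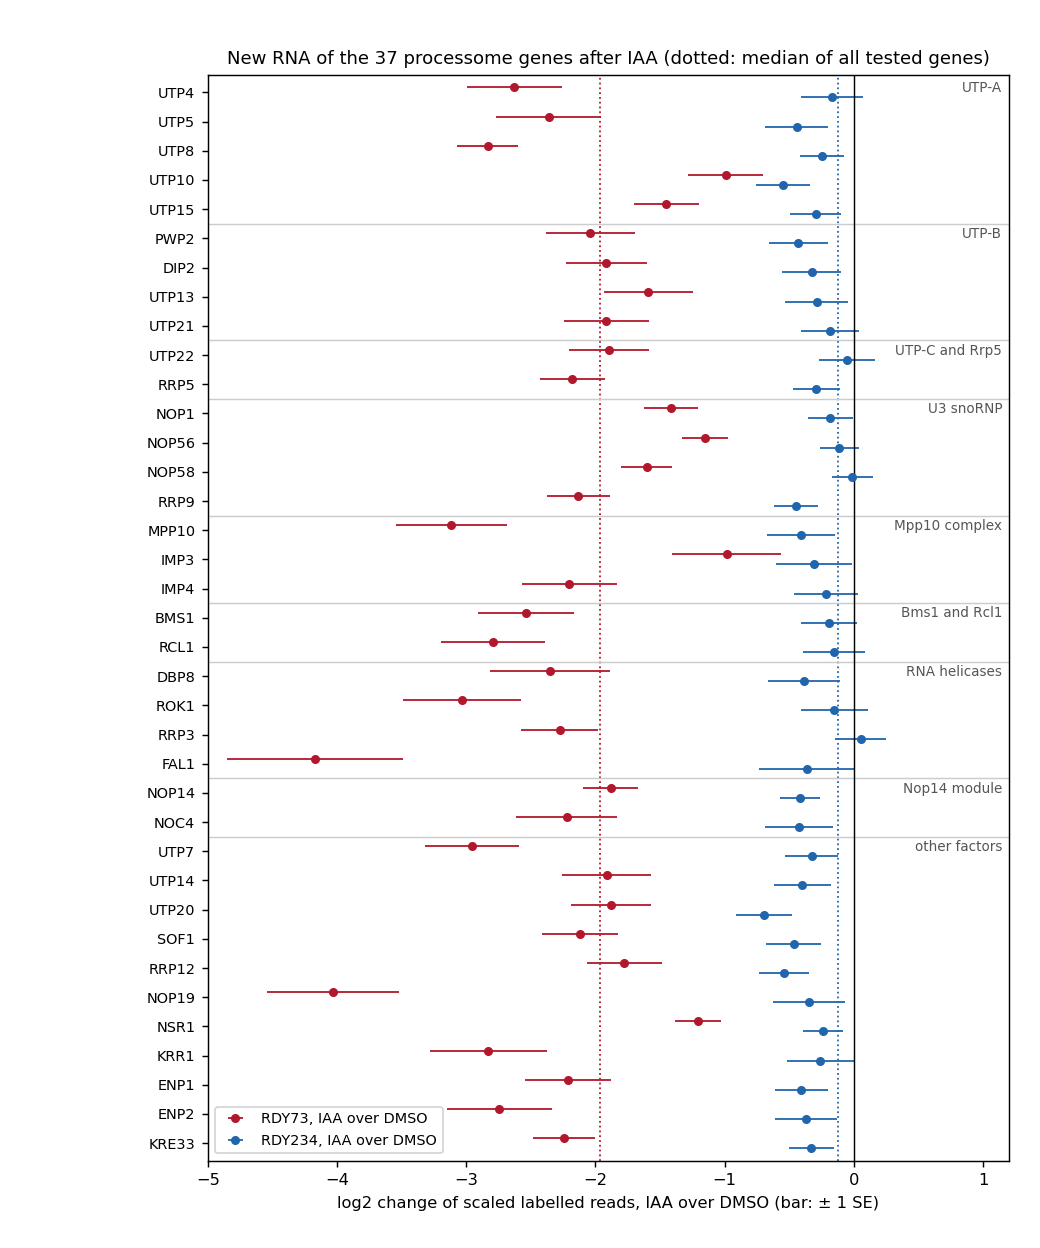
Log2 change of scaled labelled reads, IAA over DMSO, for the 37 processome genes grouped by complex, in RDY73 (red) and RDY234 (blue), with bars of 1 SE and dotted lines at the median of all tested genes (−1.97 and −0.12). The red points run between −4.17 for FAL1 and −0.98 for IMP3, and the blue points between −0.69 and 0.05.

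The processome genes were also lower in RDY73 than in RDY234 without IAA, per S. pombe read. The spike-in cells were added by optical density, per the series' design text, so a strain difference in RNA and one in cells per unit of optical density cannot be told apart. In cells given DMSO and 4tU, 36 of 37 members had less new RNA in RDY73, beside a background of 79.5% of tested genes lower and 0.308% higher, with a median log2 difference of −1.29 for the members and −1.14 for all tested genes. NOP14 had 95.8, 142 and 128 scaled labelled reads in RDY73 DMSO cells and 419, 421 and 447 in RDY234 DMSO cells, a difference of −1.83 ± 0.17 (adjusted p = 4.51e-24) with no overlap. UTP10 and ENP1 were the most lowered, at −1.86 ± 0.24 and −1.85 ± 0.24. UTP8 was the least lowered of those called, at −0.74 ± 0.18, and FAL1 did not pass, at −0.69 ± 0.40 (adjusted p = 0.097). For FAL1 the libraries overlapped, with 15.8, 22.8 and 17.7 in RDY73 and 19.2, 30.3 and 40.8 in RDY234. FAL1 passed without RDY234 DMSO replicate A (−0.92), with at least 1 conversion (−0.66) and with total S. pombe reads as the scale (−0.85). The alternatives for FAL1 gave adjusted p values between 0.0471 and 0.668.

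Under relative scaling 5 members were still lower in RDY73 DMSO cells and none was higher, beside 2.95% of tested genes lower and 5.64% higher. These 5 were UTP10, RRP9, NOP14, RRP12 and ENP1, with differences between −0.72 for UTP10 and −0.62 for RRP12. In that scaling 13 of 37 members had positive values, none past the threshold, with FAL1 at 0.43 and UTP8 at 0.39 the highest.

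Total RNA of the module was lower in RDY73 as well after 25 min of IAA and the 4 min of 4tU. Summed scaled total reads of the members were 8829, 11043 and 9908 in RDY73 IAA libraries, against 20927, 25243 and 21579 in RDY73 DMSO libraries and 19853 to 20779 in RDY73 controls. All 37 members were lower with IAA than with DMSO, beside 77.9% of the 6100 genes tested lower and 1.16% higher, with a median log2 change of −1.62 for the members and −1.24 for all tested genes. Under relative scaling 26 members were lower and 5 higher, beside 30.8% of genes lower and 29.6% higher, so the members leaned to the lower side where the background was about as often higher as lower.

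UTP8 had 179, 217 and 211 scaled total reads in RDY73 IAA cells and 659, 785 and 732 in RDY73 DMSO cells, a log2 change of −1.84 ± 0.14 (adjusted p = 4.24e-15). FAL1 had 8.93, 11.04 and 7.61 with IAA and 62.9, 77.4 and 72.8 with DMSO, a log2 change of −2.93 ± 0.28 (adjusted p = 1.75e-12). NOP19 had 29.8, 18.7 and 18.6 with IAA and 139, 174 and 150.4 with DMSO, a log2 change of −2.79 ± 0.22. The groups did not overlap for these 3 genes, and FAL1 and NOP19, few in labelled reads, were the lowest of the module in total RNA too. The labelled reads are a part of the total reads, so the 2 readouts are not independent.

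The smallest falls in total RNA were in NOP1 (771.8, 922 and 795 with IAA, 1354, 1529 and 1193 with DMSO), at −0.71 ± 0.13, and in NSR1, at −0.76 ± 0.12. RRP5, NOP56 and NOP58 followed at −0.83, −0.84 and −0.89. These 5 genes are the ones that were higher under relative scaling, at 0.45 for NOP1, 0.40 for NSR1, 0.32 for RRP5, 0.30 for NOP56 and 0.26 for NOP58. Higher under TMM scaling does not by itself mean a larger part of all S. cerevisiae reads. The share of all members in those reads was 0.1967% to 0.2163% in RDY73 IAA libraries and 0.3452% to 0.4109% in RDY73 DMSO libraries. MPP10, BMS1, DBP8, NOP14, PWP2 and RRP12 changed by −1.81 ± 0.16, −1.83 ± 0.14, −1.64 ± 0.19, −1.41 ± 0.14, −1.26 ± 0.18 and −1.21 ± 0.13.

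In RDY234 the total RNA of no member passed the test after IAA, beside 0.0164% of tested genes lower and 0.0164% higher. Summed scaled total reads were 37004, 38000 and 38508 with IAA and 44282, 43928 and 42551 with DMSO. All 37 log2 changes were negative, with a median of −0.27 beside −0.13 for all tested genes, and an unadjusted p under 0.05 was found for 21 members and 482 of 6100 genes. DESeq2 made no call among the members. Every IAA library lay below every DMSO library in 26 members, against 17.3% of tested genes. IMP3 and FAL1 had the most negative values, −0.45 ± 0.16 (adjusted p = 0.58) and −0.44 ± 0.20 (adjusted p = 0.61), and NOP58 and NOP56 the least, −0.11 ± 0.12 and −0.04 ± 0.13. The members chosen by role lay between them, at −0.18 for UTP8, −0.36 for PWP2, −0.25 for NOP1, −0.29 for MPP10, −0.26 for BMS1, −0.27 for DBP8, −0.30 for NOP14, −0.35 for RRP12 and −0.23 for NSR1.

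The strains differed in the effect of IAA on total RNA for all 37 members, more negative in RDY73, beside 69.4% of tested genes more negative and 0.541% less negative. The median difference was −1.34 for the members and −1.10 for all tested genes. NOP19 differed by −2.65 ± 0.28, FAL1 by −2.49 ± 0.35, UTP8 by −1.66 ± 0.19, NSR1 by −0.53 ± 0.17 and NOP1 by −0.46 ± 0.18. The NOP1 call (adjusted p = 0.0197) was lost without RDY234 DMSO replicate A (−0.39), RDY234 IAA replicate C (−0.40), RDY73 DMSO replicate B (−0.37) or RDY73 IAA replicate A (−0.41). Under relative scaling 9 of 37 differences were positive. NOP1 at 0.57, NSR1 at 0.50 and RRP5 at 0.40 were then called less negative and 16 members more negative, beside 23.1% and 20.9% of tested genes.

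Without IAA and 4tU, all 37 members had less total RNA in RDY73 controls than in RDY234 controls, beside 77.5% of tested genes lower and 2.21% higher, with a median log2 difference of −0.98 for the members and −0.68 for all tested genes. Under relative scaling 22 members were lower and none higher, beside 9.21% of genes lower and 14.3% higher. UTP7 had 278, 271 and 277 scaled total reads in RDY73 controls and 792, 840 and 587 in RDY234 controls, a log2 difference of −1.42 ± 0.14 (adjusted p = 1.34e-10) with no overlap. BMS1 and RRP12 differed by −1.19 ± 0.13 and −1.18 ± 0.13. The smallest differences were those of IMP4 and NOP19, −0.55 ± 0.15 and −0.64 ± 0.17, which with UTP8 (−0.65 ± 0.13) had values just above 0 under relative scaling.

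Between DMSO cells with 4tU and controls, no member passed the threshold in total RNA. In RDY73, DMSO cells with 4tU against controls gave a median log2 change of 0.25 for the members and 0.03 for all tested genes, with none of 37 called, beside 0.148% of tested genes lower and 0.508% higher. In RDY234 the same comparison gave a median of 0.24 and −0.02, with none called, beside 0.18% lower and 0.393% higher. Unadjusted p values under 0.05 were found for 15 members in RDY73, where 367 of 6100 genes had one, and for 14 members in RDY234, where 436 did. All 4tU libraries lay above all control libraries in 15 members in RDY73 and in 20 in RDY234, against 7.64% and 5.49% of tested genes.

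In the comparison of 4tU with control, NSR1 had 1517, 1873 and 1559 scaled total reads in RDY73 DMSO cells and 1129, 1298 and 1279 in RDY73 controls, a log2 change of 0.42 ± 0.12 (adjusted p = 0.15) without overlap. NSR1 passed with DESeq2, which called 1 member, and under 3 other settings, and its adjusted p over the alternatives lay between 0.0177 and 0.856. FAL1 had the highest value in RDY73, 0.80 ± 0.23 (adjusted p = 0.12), and RRP9 the highest in RDY234, 0.50 ± 0.14 (adjusted p = 0.094). NOP58 in RDY73 and UTP22 in RDY234 had the lowest, −0.02 ± 0.12 and −0.05 ± 0.14. The IAA groups are compared with the DMSO groups, so both arms of those comparisons had 4tU.

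**Figure D4:**
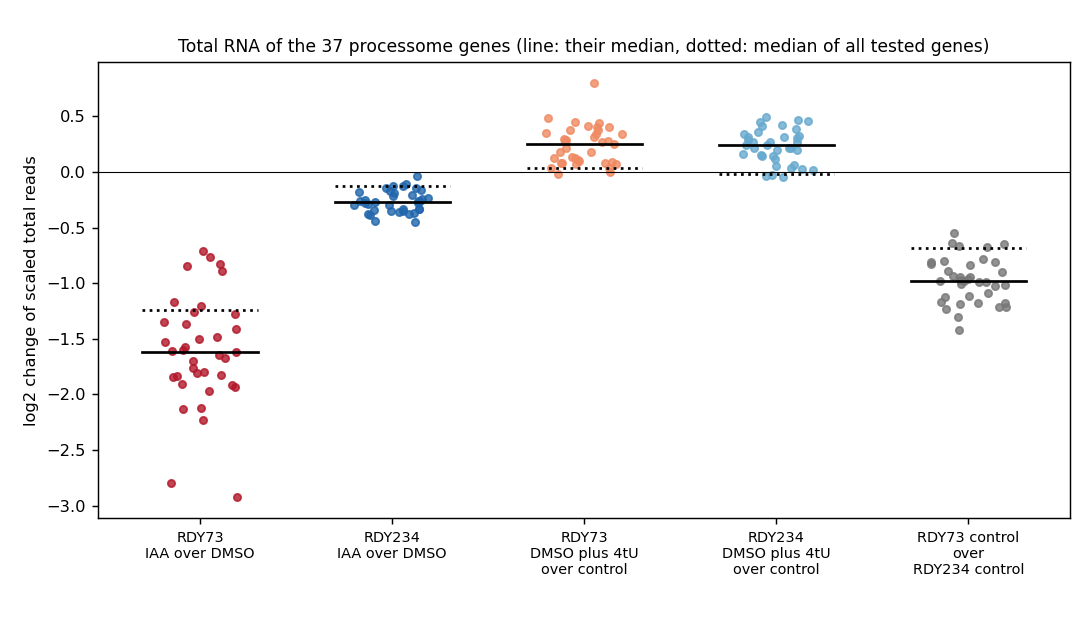
Log2 change of scaled total reads of the 37 processome genes in 5 comparisons; each point is a gene, solid lines are the medians of the 37 and dotted lines the medians of all 6100 tested genes. In RDY73 after IAA every point is below −0.70 and the median is −1.62, while in the 2 comparisons of 4tU with control the points gather around medians of 0.25 and 0.24.

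The labelled share, which is the labelled reads of a gene as a percentage of its own reads in the same library, needs no spike-in. Over all members it was 5.989% to 6.36% in RDY73 IAA libraries and 9.209% to 10.11% in RDY73 DMSO libraries, and 11.91% to 13.23% in RDY234 IAA libraries and 13.17% to 13.41% in RDY234 DMSO libraries. Libraries without 4tU gave 0.121% to 0.4383%. The mean share was lower with IAA than with DMSO for 34 of 37 members in RDY73, where it was lower for 89.2% of the genes tested for new RNA, and for 25 of 37 in RDY234, where it was lower for 53.0%.

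The shares differed widely among the members. UTP8 had a share of 9.33% ± 1.26 in RDY73 IAA cells and 18.1% ± 1.51 in RDY73 DMSO cells (SD, n = 3 each), and RRP5 had 2.61% ± 0.87 in RDY73 IAA cells and 6.60% ± 1.23 in RDY73 DMSO cells. NOP56 had the lowest share of all members in DMSO cells, 4.33% ± 0.59 in RDY73, and 3.60% ± 0.30 with IAA. The exceptions in RDY73 were IMP3, UTP10 and UTP13. IMP3 had 17.9% ± 3.09 in IAA cells and 11.3% ± 1.23 in DMSO cells, and every IAA library lay above every DMSO library. UTP10 had 9.15% ± 3.24 in IAA cells and 7.26% ± 2.14 in DMSO cells, and UTP13 had 16.5% ± 2.39 in IAA cells and 14.7% ± 3.92 in DMSO cells, and for both the libraries overlapped. The shares were not tested: with 3 libraries against 3 the smallest p an exact permutation test allows is 0.1. Shares of different genes also depend on how many T positions their reads cover, which was not corrected.

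**Figure D5:**
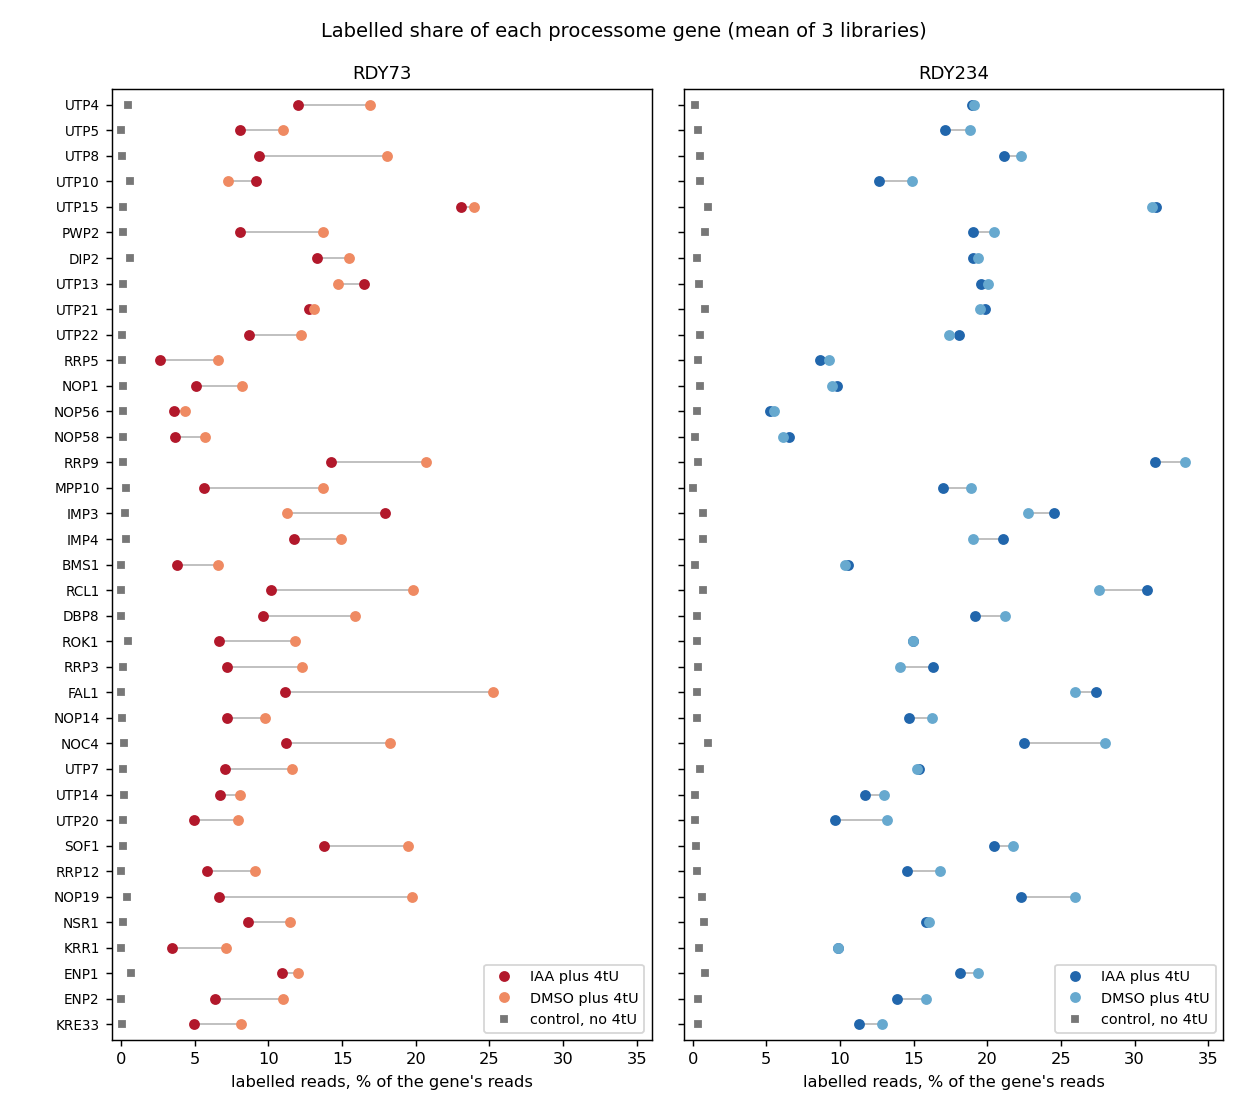
Labelled reads as a percentage of a gene's reads, mean of 3 libraries, for the 37 processome genes in RDY73 (left) and RDY234 (right) with IAA plus 4tU, DMSO plus 4tU, and no 4tU (grey squares). In RDY73 the IAA point is left of the DMSO point for 34 genes, the exceptions being UTP10, UTP13 and IMP3, and the grey squares stay at or below 1.07% in both strains.

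Other genes of ribosome assembly were lower in RDY73 after IAA too. New RNA was lower for 31 of 31 further genes linked to the processome, with a median log2 change of −2.22, for 8 of 8 late factors of the pre-40S particle, at −2.23, for 53 of 53 factors of the large subunit, at −2.06, and for 8 of 8 genes of RNA polymerase I, at −1.85, beside 83.9% of all tested genes lower and a median of −1.97. In RDY234 none of these genes was called, with medians of −0.20, −0.40, −0.24 and −0.24. PAC stood before 26 of the 31, 7 of the 8, 48 of the 53 and 7 of the 8, beside 17% of all genes. RRPE stood before 61.3%, 62.5%, 73.6% and 75% of the same lists, beside 59.5% of the members and 6.73% of all genes. Median log2 changes of total RNA after IAA in RDY73 were −1.69, −1.77, −1.64 and −1.32 for the same lists. The members had −1.62 and all tested genes −1.24. Between the strains' controls the lists had −0.96, −0.84, −0.997 and −0.89, beside −0.98 for the members. For 4tU over control the medians of the lists ran between 0.24 and 0.29 in RDY73 and between 0.15 and 0.27 in RDY234. No difference between these lists and the members was tested.

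The counting windows bear on single values. Every member's window ran from the start of its gene to 250 bp beyond the end, and 7 of them overlapped the window of a gene on the same strand: DBP8, DIP2, PWP2, UTP21, KRR1, UTP14 and UTP7. In 20 members, among them IMP3, FAL1, MPP10 and NOP14, the window overlapped a gene on the other strand, and since the use of strand in counting is not given in the sources used here, reads of such pairs cannot be told apart. At most 1.24% of a member's reads were multimapped.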

How the data were processed

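Reads were made by SLAM-seq, in which incorporated 4tU is alkylated and read as T-to-C conversions, from 3′ mRNA-seq libraries. Per the submitters' processing notes, fastp 0.23.2 and the builds R64 and ASM294v2 were used, and per the file headers conversions were counted with SLAM-DUNK 0.4.3. The sources used here do not give trimming or mapping settings or any use of molecular identifiers, and intervals cover counting error only. The authors deposited 72 tables of counts, 4 per library: reads and reads at or above 1 or 2 conversions for each gene window, per species.

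From these counts, new RNA (at least 2 conversions, 12 libraries) and total RNA (18 libraries) were tested in edgeR 4.0.16 (R 4.3.3) with 1 mean per group, an offset of the log S. pombe sum (labelled or all reads), and Benjamini-Hochberg adjustment over all genes with at least 10 reads in at least 3 libraries. The SE is the log2 change divided by the square root of F. The fit was checked on simulated counts in which few genes, all well covered, were lowered and the spread was the same for every gene. In the data most genes were lower in RDY73 after IAA, so the check does not cover such a shift or members with few reads. Replicate letters did not pair the samples: deviations of libraries with the same letter correlated between −0.10 and 0.13. Motifs were searched in the RefSeq R64 genome. The members, lists and motifs were chosen with earlier results of these data known. In the comparison of new RNA after IAA in RDY73 all members are named, and elsewhere 9 members picked for their roles, the 2 lowest, the 2 highest and any called where 5 or fewer were. Alternatives were other scalings, filters, conversion thresholds and fits, DESeq2 1.42.0, and leaving out each library. An S. pombe sum without 1 window of multimapped reads (SPNCRNA.1095) was added after seeing the data.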

Additional observations from a re-analysis of the deposited data

Results flagged for a closer look

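The effect of IAA on new RNA differed between the strains for 35 of the 37 members, and on total RNA for 37, each by the test of the difference itself. All were more negative in RDY73, beside 74.2% of the genes tested for new RNA and 69.4% of those tested for total RNA. The differences of log2 changes in new RNA, RDY73 minus RDY234, were −3.81 for FAL1 and −3.69 for NOP19, both with replicates B and C of RDY73 IAA at 0, then −2.71 for MPP10, −2.59 for UTP8, −2.35 for BMS1, −1.97 for DBP8, −1.61 for PWP2, −1.47 for NOP14, −1.23 for RRP12, −1.23 for NOP1 and −0.97 for NSR1. In total RNA they were −2.65 for NOP19, −2.49 for FAL1, −1.66 for UTP8, −1.57 for BMS1, −1.52 for MPP10, −1.38 for DBP8, −1.11 for NOP14, −0.90 for PWP2, −0.86 for RRP12, −0.53 for NSR1 and −0.46 for NOP1. The members' median differences of −1.81 in new and −1.34 in total RNA stand beside −1.82 and −1.10 for all tested genes.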

How the results depend on the processing

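The replicate block changed no count of members called: 37 for new RNA in RDY73, 0 in RDY234, 35 for the difference between them, 36 for the strains with DMSO, 37, 0 and 37 for the same 3 comparisons of total RNA with IAA, 0 and 0 for 4tU and 37 for the controls. Leaving out each library in turn gave 36 to 37, 0 to 0, 35 to 35 and 35 to 37 members for the comparisons of new RNA, and 37 to 37, 0 to 0, 36 to 37, 0 to 0, 0 to 0 and 37 to 37 for those of total RNA. Relative scaling moved most: it left 11 members called for new RNA in RDY73, 5 for the difference between strains and 5 for the strains with DMSO, and for total RNA 19 for the difference and 22 for the controls. For 4tU against control it called 1 member in RDY73 and 6 in RDY234. That comparison also gave 1 member in RDY73 with TMM over S. pombe genes, 1 with DESeq2 and 4 with only the compared libraries, and 1 in RDY234 with TMM over S. pombe genes. The cause was not tested. For 4tU against control, shares of all tested genes called under these alternatives are not given here, so those counts stand without a background.

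Among the members named by rule in each comparison, values that changed sign, with a call under either setting, did so under relative scaling alone. Over all 37 members, that scaling gave positive values for 8, 11 and 13 in new RNA (RDY73, difference, strains with DMSO) and for 5, 9 and 3 in total RNA (RDY73, difference, controls). For new RNA in RDY73 they became 0.70 for UTP10, 0.25 for UTP15, 0.11 for UTP13, 0.30 for NOP1, 0.56 for NOP56, 0.12 for NOP58, 0.71 for IMP3 and 0.51 for NSR1. For the difference in new RNA they became 0.35 for NOP1, 0.11 for NOP14, 0.33 for RRP12, 0.61 for NSR1 and 1.12 for UTP10, and for the strains with DMSO 0.39 for UTP8, 0.23 for NOP1, 0.11 for MPP10 and 0.20 for NSR1. For total RNA in RDY73 they became 0.45 for NOP1 and 0.40 for NSR1 (and, outside the rule, 0.32 for RRP5, 0.30 for NOP56 and 0.26 for NOP58), for the difference 0.12 for PWP2, 0.57 for NOP1, 0.16 for RRP12 and 0.50 for NSR1, and for the controls 0.015 for UTP8, 0.018 for NOP19 and 0.12 for IMP4. Of the named members' other values under the alternatives, 2210 kept their side of the threshold, and those called kept their direction. Some of them, called under neither setting, changed sign under relative scaling, such as IMP3 for the difference in new RNA and FAL1 for the strains with DMSO. S. pombe reads set every level per spike-in, and the window SPNCRNA.1095 held 19.66% to 28.31% of the labelled ones. Of all S. pombe reads it held 4.657% to 6.706% in RDY73 libraries and 10.27% to 17.08% in RDY234 libraries. Leaving it out changed no count of members called and no call of a named member. The members' median difference between the strains' controls was then −1.05, beside −0.98 with it. FAL1, with 210 labelled reads in 12 libraries, and IMP3, with 359, are limited by depth.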
